A study of Mus musculus with 4 samples.

Results

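The small nucleolar RNA and Cajal body RNA genes of the mouse were described in RNA-seq of embryonic brain and spine from a folate-deficiency model of neural tube defects (NTD). Gene identifiers were mapped to GENCODE M21 symbols, and genes named Snord, Snora or Scarna followed by a number were kept when their mean over the 4 libraries was at least 1 FPKM (read density per length of gene model, scaled to the library). That left 37 of the 53 such genes in the table of 28765 genes: 24 box C/D genes (Snord), 12 box H/ACA genes (Snora) and 1 Cajal body gene (Scarna17). All embryos were of the CD-1 strain and were collected at embryonic day (E) 9.5. The protocol text describes parents kept on a diet low in folate for more than 8 weeks. NTD brain and NTD spine are labelled as folate-deficient with neural tube defects, which the protocol produced by injecting 1.5 mg/kg of methotrexate (MTX), an inhibitor of dihydrofolate reductase, into the peritoneum at E7.5. Control brain and control spine carry the treatment label control. The labels repeat the same diet and injection text for them so it is unknown whether control mothers received either, and they do not give how many embryos went into a library. Each group was 1 library, so no difference within a tissue has a replicate check. The p-values given further down rest on how far the NTD difference varied between brain and spine, moderated over all genes.

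Small nucleolar RNAs guide the chemical modification of other RNAs by base pairing. Box C/D RNAs carry short C and D boxes near their ends, are bound by fibrillarin, Nop56, Nop58 and Snu13, and direct ribose methylation. Box H/ACA RNAs end in an ACA shortly before their 3′ end, are bound by dyskerin, Nhp2, Nop10 and Gar1, and direct pseudouridylation. Most of both kinds act on ribosomal RNA in the nucleolus, whereas Cajal body RNAs act on the RNAs of the spliceosome. In mammals nearly all of them lie in introns of other genes and are cut out of the spliced intron, so the host promoter drives both products.

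The 8 genes whose recovered reads, or whose differences, carry most of the results are shown as GENCODE M21 transcripts of GRCm38, 5′ to 3′, so that their class can be read from the sequence. Of the box C/D genes, Snord104 lies at chr11:106500993-106501062 on the plus strand, Snord43 at chr15:80082847-80082954 on the minus strand, Snord73a at chr3:86138791-86138858 on the minus strand, Snord110 at chr2:130275506-130275573 on the plus strand and Snord89 at chr1:39548745-39548854 on the minus strand. Capitals mark TGATGA, the commonest form of box C, within the first 20 bases and CTGA, box D, within the last 20 bases, both read on the transcript strand.
Snord104: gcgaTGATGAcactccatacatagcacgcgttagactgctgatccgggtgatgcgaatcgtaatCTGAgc
Snord43: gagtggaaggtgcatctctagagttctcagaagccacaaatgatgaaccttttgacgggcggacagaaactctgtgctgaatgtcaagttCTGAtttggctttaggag
Snord73a: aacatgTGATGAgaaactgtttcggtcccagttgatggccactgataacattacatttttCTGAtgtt
Snord110: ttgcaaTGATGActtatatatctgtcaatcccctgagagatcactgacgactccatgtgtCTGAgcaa
Snord89: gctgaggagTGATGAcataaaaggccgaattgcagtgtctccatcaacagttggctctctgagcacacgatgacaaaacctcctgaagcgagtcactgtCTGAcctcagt
Of the box H/ACA genes, Snora17 lies at chr2:26639190-26639321 on the minus strand, Snora20 at chr17:12922790-12922917 on the plus strand and Snora31 at chr14:75847905-75848034 on the plus strand. Capitals mark ACA within the last 10 bases.
Snora17: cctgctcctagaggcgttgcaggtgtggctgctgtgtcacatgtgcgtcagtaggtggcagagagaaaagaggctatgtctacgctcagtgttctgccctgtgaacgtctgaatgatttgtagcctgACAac
Snora20: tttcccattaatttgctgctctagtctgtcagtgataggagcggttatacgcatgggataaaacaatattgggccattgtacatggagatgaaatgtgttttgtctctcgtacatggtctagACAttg
Snora31: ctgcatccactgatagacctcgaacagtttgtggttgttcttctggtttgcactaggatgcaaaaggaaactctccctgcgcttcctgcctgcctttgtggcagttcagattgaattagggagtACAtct
The Snord43 model has no TGATGA in its first 20 bases and has it from base 41 on. CTGA was found in its window in 24 of 24 box C/D genes and TGATGA in 14 of 24 (58.3%), while ACA was found in its window in 12 of 12 box H/ACA genes. Among 8896 other annotated transcripts under 300 bases, 0.753% held TGATGA, 9.41% CTGA and 13.4% ACA in the same windows. The sequences thus carry the marks of the classes that the symbols give, and a match says nothing of function. Snora17 also holds a CTGA from base 125, which overlaps the first base of its ACA and is not marked.

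The deposited FPKM stepped in whole reads, which gave library totals of between 16272101 and 16911677 mapped reads and the reads behind each value. The 37 genes are short, between 65 and 238 bases (medians 83.5 bases for box C/D and 134 bases for box H/ACA), so that 1 read was worth between 0.254 and 0.929 FPKM. They took 1716 reads in all 4 libraries together. In every library 18 of the 37 had at most 10 reads, 11 reached 20 reads in at least 1 library, and 6 had 0 reads in at least 1. Intervals given here are exact 95% intervals of counting, and they cover counting error only, since amplified reads are not independent molecules. Marker lists followed the tissue labels in part: the summed level of 5 forebrain and midbrain markers was 63.2 FPKM in NTD brain and 69.4 in control brain, against 4.38 in NTD spine and 9.60 in control spine, and no marker of that list was at 0. The 5 trunk Hox markers summed to 7.37 FPKM in NTD brain and 0.123 in control brain, where Hoxb8 and Hoxc9 were at 0, and to 105.3 in NTD spine and 95.9 in control spine. All 5 heart markers were higher in NTD brain than in control brain (113.5 against 26.6 FPKM summed) and all 5 were lower in NTD spine than in control spine (272.8 against 400.8 FPKM). All 5 early neuron markers were lower in NTD brain (85.1 against 134.5 FPKM in control brain) and in NTD spine (33.4 against 71.5 FPKM in control spine). The 3 yolk sac and gut markers summed to 31.1 FPKM in NTD spine and 102.9 in control spine, and to 0.177 FPKM in NTD brain and 0.096 in control brain, with Apoa1 at 0 in NTD brain and Afp and Ttr at 0 in control brain. The 4 primitive erythroid markers summed to 4366 FPKM in NTD brain, 4025 in control brain, 3289 in NTD spine and 6251 in control spine. The part of tissue make-up in the differences below was not tested, and in bulk samples fewer cells of a type and less RNA per cell cannot be told apart.

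Levels per length differed widely among the genes, with means over the 4 libraries between 1.11 and 39.7 FPKM and class medians of 4.32 FPKM for box C/D and 3.55 FPKM for box H/ACA. Snord104, which in human guides ribose methylation of large subunit ribosomal RNA, had the highest mean. It measured 25.2 FPKM (29 reads) in NTD brain and 52.4 FPKM (62 reads) in control brain, and 24.1 FPKM (28 reads) in NTD spine and 57.1 FPKM (65 reads) in control spine. Both NTD libraries were low and both control libraries were high. Snora17, a guide for pseudouridylation of large subunit ribosomal RNA in human, measured 6.90 FPKM (15 reads) in NTD brain and 34.9 FPKM (78 reads) in control brain, and 10.9 FPKM (24 reads) in NTD spine and 34.9 FPKM (75 reads) in control spine. It split the libraries in the same way as Snord104, with a larger gap. Snora31, also a large subunit guide in human, measured 30.8 FPKM (66 reads) in NTD brain and 14.6 FPKM (32 reads) in control brain, and 19.9 FPKM (43 reads) in NTD spine and 17.5 FPKM (37 reads) in control spine. Here NTD brain stood above the other libraries. Snord43, a small subunit methylation guide in human, measured 20.8 FPKM (37 reads) in NTD brain and 9.86 FPKM (18 reads) in control brain, and 24.5 FPKM (44 reads) in NTD spine and 10.8 FPKM (19 reads) in control spine. Both NTD libraries were above both control libraries, the reverse of Snord104. Snord72, Snord55, Snord49a and Snord73a, which guide methylation of large subunit ribosomal RNA in human, complete the 8 genes with the highest means, at 17.3, 14.0, 14.0 and 10.04 FPKM.

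**Figure D1:**
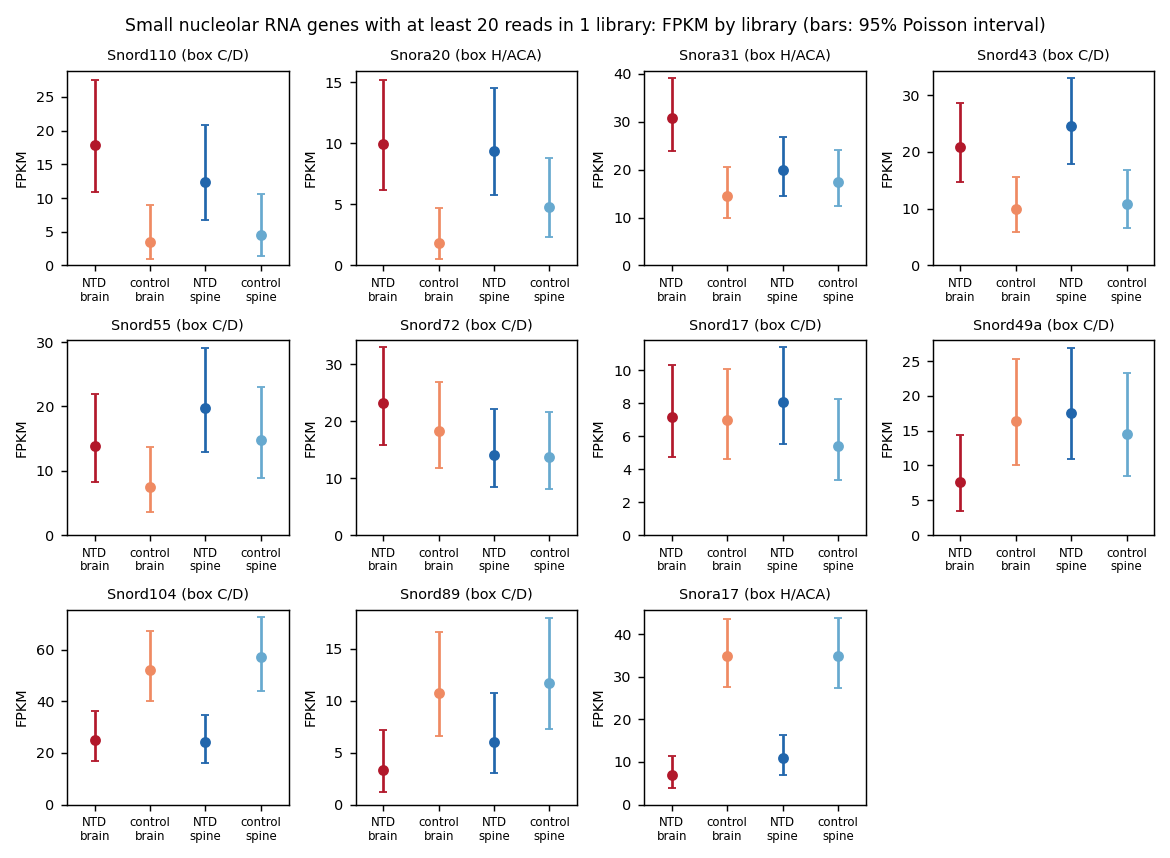
FPKM (y axis) of each of the 11 genes with at least 20 reads in at least 1 library, in NTD brain, control brain, NTD spine and control spine (x axis). Points are the single library of each group and bars are 95% Poisson intervals of its reads. Snord104 and Snora17 were low in both NTD libraries, Snord43 was high in both, and Snord17 and Snord72 have overlapping bars throughout.

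In NTD brain, ribosomal RNA guides of both classes were found higher and lower than in control brain, with no shift of the set as a whole. On the log2(FPKM + 1) scale, which understates the change of low genes, 7 of the 37 genes were at least 2-fold higher in NTD brain, where 0.804% of all 12940 genes past the same filter were, and 8 were at least 2-fold lower, where 0.781% of all genes were. These shares of genes with few reads cannot be read against all genes alone: among 372 other gene models under 300 bases, 12.1% were at least 2-fold higher and 13.7% lower. Those 372 were chosen by length and filter only, and they include small nucleolar RNA models outside the symbol rule. The interval of the read ratio excluded equality for 10 of the 37 genes (27.0%), 6 higher and 4 lower, against 41.8% of all genes with whole reads and 13.2% of the other short models. The median log2 ratio was -0.06 over the 37 genes and -0.03 over all genes.

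Among the genes with more reads in NTD brain, Snora20, a small subunit pseudouridylation guide in human, had 21 reads (9.96 FPKM) in NTD brain, against 4 (1.85 FPKM) in control brain. Its read ratio was 5.39 (1.82 to 21.6). Snord110, a small subunit methylation guide in human, had 20 reads in NTD brain, against 4 in control brain, a ratio of 5.13 (1.72 to 20.7). Control brain was low for both genes, and both intervals are wide. For Snora31 the ratio was 2.12 (1.37 to 3.34), and for Snord43 it was 2.11 (1.17 to 3.94). Snord73a had 19 reads in NTD brain, against 2 in control brain, a ratio of 9.75 (2.35 to 86.4), and control brain was also below NTD spine (13 reads) and control spine (11 reads). Snora62, another large subunit guide in human, had 11 reads in NTD brain, against 1 in control brain, a ratio of 11.3 (1.64 to 486), with 6 reads in NTD spine and 5 in control spine. For Snora62 the spine libraries lay between the brain libraries. Snord15a, with 7 reads in NTD brain, against 1 in control brain, is the other gene past 2-fold, and its interval included equality (ratio 7.19, 0.923 to 324).

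Among the genes with fewer reads in NTD brain, Snora17 differed the most of those with at least 20 reads, at 5.06-fold lower (2.89 to 9.48). Snord104 was 2.08-fold lower (1.32 to 3.36). Snord89, a box C/D RNA held by the noncoding gene Gm15832, had 6 reads (3.31 FPKM) in NTD brain, against 20 (10.8 FPKM) in control brain, and was 3.25-fold lower (1.26 to 9.88). Its interval is wide but lies on the same side as those of Snora17 and Snord104. Scarna17 had 0 reads in NTD brain, against 6 in control brain, and had 0 reads in both spine libraries. Against a floor of 3 reads it was 1.95-fold lower in NTD brain, while its counting interval begins at 1.15-fold lower. It passed the filter only through control brain, so its place among the lower genes is not read as a result. Snord49a (9 reads in NTD brain, 20 in control brain, 2.16-fold lower, 0.942 to 5.4), Snord88c (3 and 11 reads), Snora21 (1 and 6 reads) and Snord71 (0 and 4 reads) were also past 2-fold, with intervals that included equality. At these depths a 2-fold difference excludes equality only from 39 reads over both libraries of a pair, which 6 of the 37 genes reached in brain.

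In NTD spine Snora17 and Snord104 were again lower, and Snord43 again higher, than in control spine. By the 2-fold count, 7 of the 37 genes were higher in NTD spine (0.649% of all genes, 14.5% of the other short models) and 3 were lower (0.68% of all genes, 9.95% of the other short models). The interval excluded equality for 8 genes (21.6%), 5 higher and 3 lower, against 43.8% of all genes and 13.7% of the other short models. The median log2 ratio was 0.16 over the 37 genes and -0.04 over all genes.

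Snora17 was 3.19-fold lower in NTD spine (1.99 to 5.28) and Snord104 2.37-fold lower (1.50 to 3.83). Snora69, a guide for pseudouridylation of 5.8S ribosomal RNA in human, is the other gene past 2-fold lower, with 6 reads (2.76 FPKM) in NTD spine and 19 (8.91 FPKM) in control spine, or 3.23-fold lower (1.24 to 9.89). Its brain libraries had 10 reads in NTD and 13 in control, which differed by less than counting error. Snord43 was 2.27-fold higher in NTD spine (1.30 to 4.12). Snord110, with 14 reads in NTD spine and 5 in control spine, had a ratio of 2.74 whose interval included equality (0.934 to 9.73). The remaining genes past 2-fold higher rested on few reads. Snord32a had 8 in NTD spine and 0 in control spine, and Snord71 and Snord15a had 6 and 0 each. Against a floor of 3 reads these were 2.61-fold and 1.96-fold higher, and the floor is not a limit of counting. The others were Snora23 (8 and 1 reads, ratio 7.84, 1.05 to 348) and Snora30 (11 and 3 reads, ratio 3.59, 0.949 to 20.1). Snord32a, an RNA of an Rpl13a intron that has been linked to lipotoxic stress in cultured rodent cells, had 0 reads in NTD brain, against 1 in control brain. It thus passed the filter only through NTD spine. Snora31, which was higher in NTD brain, had a ratio of 1.14 in spine (0.717 to 1.82), and the difference between tissues was not tested. In spine a 2-fold difference excludes equality only from 45 reads over the pair, and 6 of the 37 genes reached that.

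**Figure D2:**
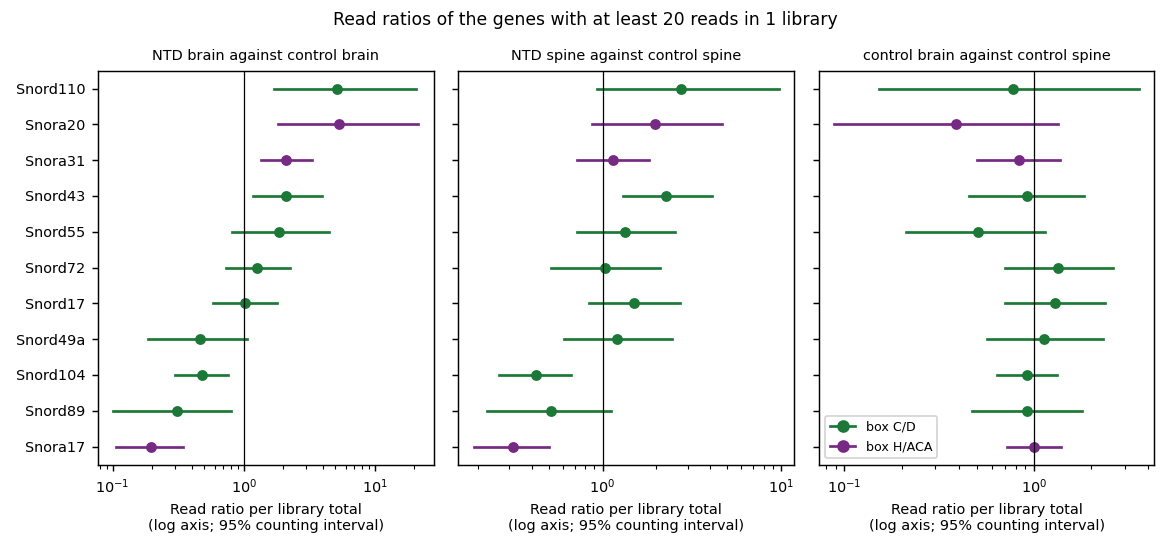
Ratio of reads per library total (x axis, log scale) for the 11 genes with at least 20 reads in at least 1 library (y axis), in NTD brain against control brain, NTD spine against control spine and control brain against control spine. Points are ratios and bars their 95% counting intervals. Snora17, Snord104 and Snord43 lie clear of equality in both NTD panels, and no bar in the control panel does.

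The brain and spine comparisons, which share no library, were set side by side. Of the 37 genes, 15 were higher in both NTD libraries and 11 lower in both, while 10 differed in sign and Scarna17 had no reads in spine. Past 2-fold in both tissues were Snord43, Snord110 and Snord15a as higher, and Snora17 and Snord104 as lower. Snord71 was past 2-fold in opposite directions on 0 to 6 reads. The counts of direction above have no share over all genes beside them and are not read as an excess. Spearman's rho between the brain and spine log2 ratios was 0.319 over the 37 genes and 0.456 over all other genes. Over the 11 genes with at least 20 reads in at least 1 library it was 0.818. Those 11 genes were picked by the same reads that form the ratios. Snord110, for example, reached 20 reads only in NTD brain, where it was high. Their rho values are therefore not read against those of all other genes. Of those 11 genes, 7 were higher in both NTD libraries, 3 were lower in both and 1 differed in sign. These counts also have no share over all genes beside them and are not read as an excess. Genes within a library share its depth and its base composition, and rho describes these 4 libraries only. The log2 ratio also ran with GC content over all other 12890 genes (Spearman's rho -0.337 in brain and -0.360 in spine). Over the 37 genes this rho was -0.27 in brain and -0.03 in spine. Over the 11 genes with at least 20 reads in at least 1 library it was -0.60 in brain and -0.40 in spine. The GC content of the lower genes was 53.0% for Snora17, 51.4% for Snord104 and 50% for Snord89, and that of the higher genes was 47.7% for Snora31, 46.3% for Snord43, 42.6% for Snord110, 40.6% for Snora20 and 38.2% for Snord73a. The part of base composition in these differences was not tested.

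**Figure D3:**
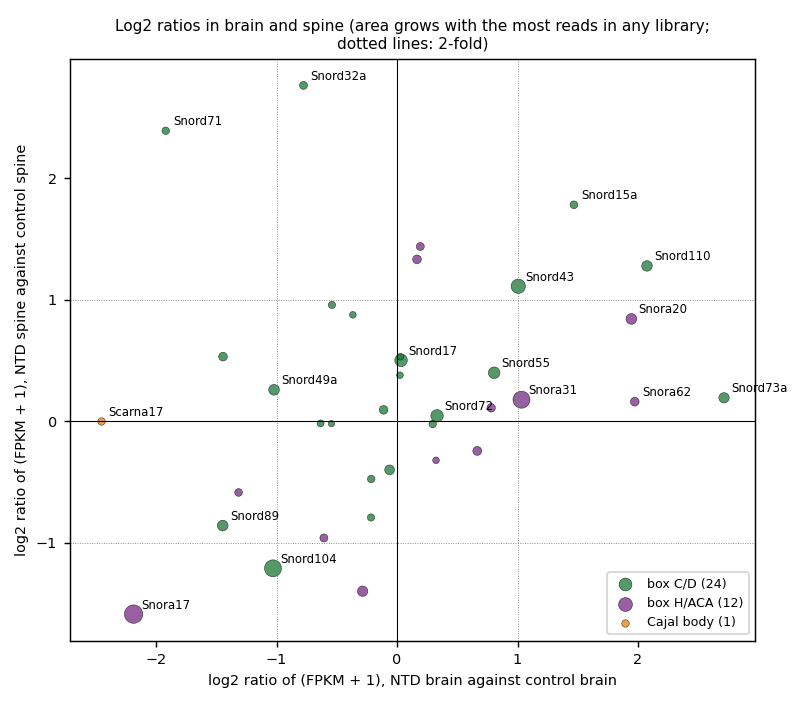
Log2 ratio of (FPKM + 1) in NTD brain against control brain (x axis) and in NTD spine against control spine (y axis) for the 37 genes, coloured by class, with point area growing with the most reads in any library and dotted lines at 2-fold. The largest points away from the centre are Snora17 and Snord104 at the lower left and Snord43 at the upper right, and the small points scatter into all corners.

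With tissue as a term, the 4 libraries allow a test of NTD against control over both tissues, fitted with limma on log2(FPKM + 1) across all 12940 genes with 1 residual degree of freedom each. Snord43 rose (log2 difference 1.06, SE 0.06, limma adjusted p = 0.0375) and Snord104 fell (log2 difference -1.12, SE 0.07, limma adjusted p = 0.0375). These were 2 of 37 genes called, against 0.147% of all genes and 7 of the 372 other short models (1.88%), and each moved its way in both tissues. The count is not read as an excess, since on simulated data this fit also called unchanged short models. Both standard errors are far below what the reads allow, since counting error alone gives 0.27 for Snord43 and 0.22 for Snord104, and the fitted error was below the counting error in 31 of the 37 genes. When the variance trend was instead taken against the recovered reads, a choice made after the data were seen, limma called 6 of the 37 genes, 7.66% of the 12721 genes tested and 19 of 371 other short models (5.12%). Snora17 (log2 difference -1.89, SE 0.20, adjusted p = 0.00128), Snord104 (SE 0.18, adjusted p = 0.0094) and Snord89 (log2 difference -1.15, SE 0.30, adjusted p = 0.0459) fell in that limma fit. Snord43 (SE 0.21, adjusted p = 0.0193), Snord110 (log2 difference 1.68, SE 0.35, adjusted p = 0.0212) and Snora20 (log2 difference 1.39, SE 0.34, adjusted p = 0.0369) rose in it. Fitted errors were below counting errors in 20 of the 37 genes there. Over 8 settings the adjusted p from limma ranged from 0.0082 to 0.422 for both Snord104 and Snord43, called in 6 settings each, and from 0.00128 to 0.422 for Snora17, called in 5. Brain and spine stand in as replicates here, and the labels do not say whether they came from the same embryos.

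Summed reads of the box C/D and box H/ACA classes differed by less than counting error in both NTD comparisons, except those of box H/ACA in spine. The 24 box C/D genes summed to 251 reads in NTD brain, against 258 in control brain, a ratio per library total of 0.999 (0.836 to 1.19), and to 287 reads in NTD spine and 251 in control spine, a ratio of 1.12 (0.943 to 1.33). Neither ratio excluded equality. The 12 box H/ACA genes summed to 164 reads in NTD brain, against 165 in control brain, a ratio of 1.02 (0.817 to 1.28). In spine they summed to 146 reads in NTD and 188 in control, 1.31-fold lower (1.05 to 1.64). Snora17 alone held 24 of those NTD reads and 75 of those control reads, and the other 11 genes summed to 122 in NTD spine and 113 in control spine. In brain those 11 genes summed to 149 reads in NTD and 87 in control, so that the flat class total there joined a low Snora17 with higher counts of the rest. Likewise the 23 box C/D genes other than Snord104 summed to 222 reads in NTD brain, against 196 in control brain, and to 259 in NTD spine and 186 in control spine. These subtotals were formed after their values were seen and carry no interval.

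**Figure D4:**
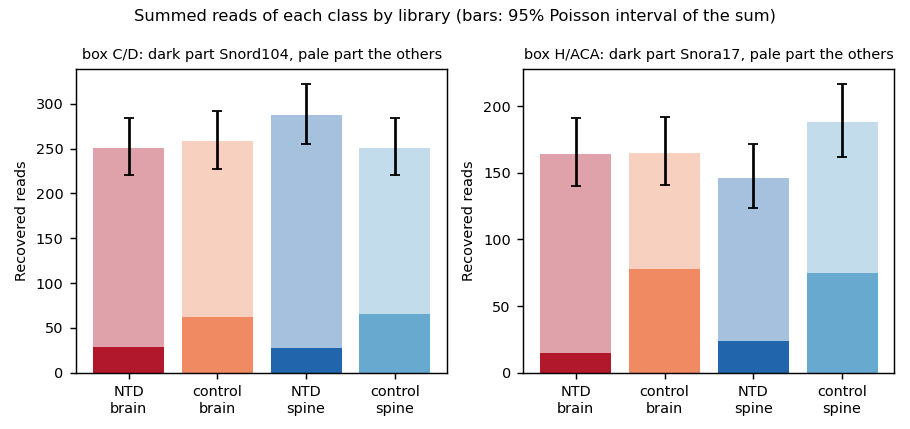
Recovered reads summed over the 24 box C/D genes (left) and the 12 box H/ACA genes (right) in NTD brain, control brain, NTD spine and control spine. Bars start at 0, the dark part is Snord104 on the left and Snora17 on the right, and error bars are 95% Poisson intervals of the sum. The dark parts are smaller in the NTD libraries than in the control libraries, and the error bars of the totals overlap within each tissue.

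The median log2 ratio of the box C/D genes was -0.16 in brain and 0.32 in spine, and that of the box H/ACA genes 0.26 in brain and -0.07 in spine. Of the box C/D genes, 4 were at least 2-fold higher and 5 lower in NTD brain, and 5 higher and 1 lower in NTD spine. Of the box H/ACA genes, 3 were higher and 2 lower in NTD brain, and 2 higher and 2 lower in NTD spine. The Cajal body class is Scarna17 alone, whose human counterpart guides modification of spliceosomal RNA, and its 6 reads were all in control brain, so it allows no statement on its class. A count of 0, as in the other libraries, has an upper 95% Poisson limit of 3.69 reads. Scarna17 also shares 82.0% of its 30-base runs with other annotated genes, as 9 more of the 37 genes do in part. Snora17 shares 32.0%, with at least 5 unnamed gene models. The counting may split reads among such copies. The Gm-numbered and other small nucleolar or Cajal body RNA models, 71 past the filter and outside the symbol rule, had a median log2 ratio of 0.21 in brain and 0.31 in spine. By 2-fold, 12 were higher (16.9%) and 11 lower (15.5%) in NTD brain. Of all genes 0.804% and 0.781% were, and of the other short models 12.1% and 13.7%. In NTD spine 19 were higher (26.8%) and 3 lower (4.23%). There the shares were 0.649% and 0.68% of all genes, and 14.5% and 9.95% of the other short models. Summed reads of the 71 models were 1547 in NTD spine and 1221 in control spine, a ratio of 1.24 (1.15 to 1.34). The ratio of the 37 genes there was 0.967 (0.844 to 1.11). In brain the sums of these 71 models were 1227 reads in NTD and 1099 in control, a ratio of 1.15 (1.06 to 1.25). It was 0.993 (0.866 to 1.14) for the 37 genes. Summed reads of the 372 other short models had a similar ratio in brain, 1.16 (1.14 to 1.17). In spine theirs was 0.927 (0.912 to 0.943).

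Between the control tissues few differences could be resolved, since 4 of the 37 genes reached the 45 reads over the pair from which a 2-fold difference excludes equality. Control brain was at least 2-fold higher than control spine for 4 of the 37 genes (0.981% of all genes, 7.80% of the other short models) and at least 2-fold lower for 4 (2.38% of all genes, 11.02% of the other short models). The interval excluded equality for 2 genes (5.41%), against 39.1% of all genes and 10.2% of the other short models. These were Scarna17 and Snord73a. Scarna17 had 6 reads in control brain and 0 in control spine, 1.92-fold higher against a floor of 3 reads. Its counting interval begins at 1.13-fold higher, and it passed the filter only through control brain. Snord73a had 2 reads in control brain and 11 in control spine, 5.72-fold lower (1.25 to 53.1). Snora17 had a ratio of 1.001 (0.719 to 1.39) and Snord104 a ratio of 0.918 (0.638 to 1.32) between the control tissues. Snora31 (ratio 0.832, 0.502 to 1.37) and Snord43 (ratio 0.911, 0.451 to 1.84) also differed by less than counting error. The other genes past 2-fold were Snord11, Snord71 and Snord49b as higher and Snora20, Snora41 and Snora62 as lower in control brain, all with 12 reads or fewer in both libraries.

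An annotated host on the same strand, present in the table, holds 33 of the 37 genes: 28 lie in protein-coding hosts and 5 in noncoding hosts, and 30 hosts are distinct. Ribosomal protein genes are frequent among them, such as Rpl37 (Snord72), Rps3a1 (Snord73a) and Rpl3, which holds both Snord43 and Snord83b. The hosts of the genes that differed moved little. Nop56, the host of Snord110 and itself a core protein of box C/D particles, measured 109.0 FPKM in NTD brain and 85.4 in control brain, and 100.6 FPKM in NTD spine and 87.7 in control spine, log2 ratios of 0.35 and 0.20 beside 2.07 and 1.28 for Snord110. Tcp1, a chaperonin subunit that hosts Snora20, had log2 ratios of 0.23 in brain and 0.22 in spine, beside 1.94 and 0.84 for Snora20. Tpt1, the host of Snora31, had log2 ratios of 0.06 in brain and -0.07 in spine, beside 1.03 and 0.18 for Snora31.

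Rpl3 had log2 ratios of 0.19 in brain and 0.04 in spine, beside 1.01 and 1.11 for Snord43. Its other guest, Snord83b, had 13 reads in NTD brain, against 14 in control brain (ratio 0.953, 0.413 to 2.19), and 12 in NTD spine and 16 in control spine (ratio 0.735, 0.317 to 1.66). These intervals overlap those of Snord43, and the difference between the guests was not tested. Gm15832, the host of Snord89, had log2 ratios of -0.35 in brain and -0.27 in spine, beside -1.45 and -0.86 for Snord89. Over the 30 hosts the median log2 ratio was 0.11 in brain and -0.02 in spine, with ranges of -0.89 to 0.62 and -0.93 to 0.49. Only 2 of the 37 genes overlap an exon of their host (Snord42b and Snora5c), and reads of unspliced host RNA cannot be told apart from reads of the small RNA in any of them. The strand setting of the counting is not given, so Snord8, Snora57 and Snora23, which have a gene on the opposite strand, are uncertain too.

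**Figure D5:**
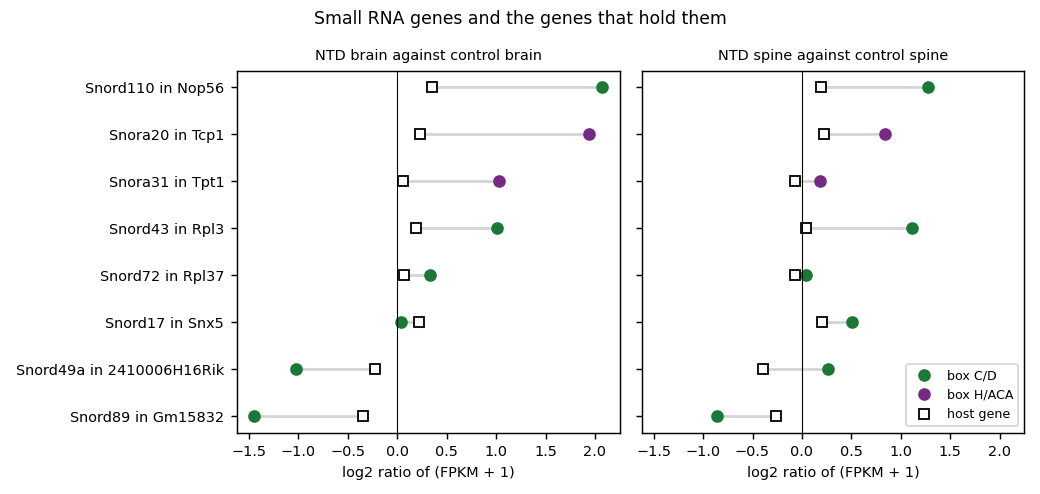
Log2 ratio of (FPKM + 1) (x axis) of 8 genes with a host and at least 20 reads in at least 1 library (circles, by class) and of their host genes (open squares), in NTD brain against control brain and NTD spine against control spine. Hosts lie between -0.39 and 0.35, while Snord110 reaches 2.07 and Snord89 lies at -1.45 in brain.

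The 4 genes with no host in the table are Snora17, Snord104, Snora57 and Scarna17. RefSeq places Snora17 within Snhg7, a noncoding host gene that was not analysed here, and places no gene around Snord104. No level of a host transcript can therefore be set beside Snora17 or Snord104, while Snord89, also lower in both NTD libraries, has one. Of 16 noncoding host genes listed, 12 passed the filter, and 1 of them was past 2-fold: Snhg20 measured 3.13 FPKM in NTD brain and 9.73 in control brain, and 2.76 FPKM in NTD spine and 7.89 in control spine, 3.11-fold lower in brain (2.57 to 3.78) and 2.86-fold lower in spine (2.33 to 3.53). Snhg6, the host of Snord87, measured 13.9 FPKM in both NTD libraries, against 26.7 in control brain and 27.5 in control spine, while Snord87 had only 2 to 4 reads per library. The list's median log2 ratio was 0.10 in brain and -0.12 in spine, since others such as Gas5 (-0.03 and -0.13) stayed close to equality.

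None of the listed proteins of the particles reached 2-fold in either tissue. Of the 4 box C/D core proteins, Nop58, which binds box C/D RNAs, measured 35.1 FPKM in NTD brain and 26.3 in control brain, and 31.7 FPKM in NTD spine and 25.1 in control spine, ratios of 1.34 (1.29 to 1.39) and 1.26 (1.21 to 1.32). The methyltransferase fibrillarin (Fbl) measured 68.7 FPKM in NTD brain and 69.9 in control brain, and 69.6 FPKM in NTD spine and 68.8 in control spine. The box C/D core list had median log2 ratios of 0.24 in brain and 0.12 in spine. Of the 4 box H/ACA core proteins, the pseudouridine synthase dyskerin (Dkc1) measured 63.2 FPKM in NTD brain and 52.5 in control brain, ratio 1.204 (1.15 to 1.26), and 59.4 FPKM in NTD spine and 48.9 in control spine, ratio 1.21 (1.16 to 1.27). Nhp2, Nop10 and Gar1 had log2 ratios between -0.15 and 0.08 in brain and between -0.11 and 0.04 in spine. The Cajal body proteins coilin (Coil) and Wrap53 had log2 ratios of 0.02 and 0.06 in brain and 0.15 and 0.05 in spine. Among all 12940 genes past the filter, 5639 were above equality in brain and 5425 in spine. Of 11 assembly factors 9 were above equality in brain and 10 in spine, with a median log2 ratio of 0.13 in each. Pih1d1, a subunit of the complex that assembles box C/D particles, was the exception in direction in spine, at 14.8 FPKM in NTD spine and 21.8 in control spine (1.47-fold lower, 1.31 to 1.65).

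The remaining genes showed no difference that their reads could resolve in either NTD comparison. Snord17, a long box C/D RNA that guides large subunit methylation in human, had 28 reads in both brain libraries, and 32 reads in NTD spine and 21 in control spine. Snord72 had 31 reads in NTD brain, against 25 in control brain, and 19 in NTD spine and 18 in control spine. Snord55 had 18 reads in NTD brain, against 10 in control brain, and 26 in NTD spine and 19 in control spine. In none of these pairs did the interval exclude equality, and the interval for Snord72 in brain (0.728 to 2.25) does not exclude a 2-fold difference. Just inside the filter lay Snora5c (mean 1.11 FPKM), Scarna17 (1.12 FPKM) and Snord49b (1.25 FPKM), and just outside it Snord23 (0.968 FPKM), Scarna2 (0.691 FPKM) and Scarna6 (0.683 FPKM). The 16 genes below the filter had at most 7 reads in any library. They include Snord118 (U8), which acts in ribosomal RNA processing, and Snord34 and Snord35a, which like Snord32a lie in Rpl13a in mammals.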

How the data were processed

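The series holds 4 RNA-seq libraries, 1 each of NTD brain, control brain, NTD spine and control spine, grouped by their titles. The authors deposited FPKM, in which reads are divided by gene length and by the library's mapped reads. The alignment was to mm10 with HISAT2 2.0.1, per the submitters' processing notes. Not given in the sources used here are the counting program, annotation, strand setting, library selection and fragment sizes.

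Of 28765 gene identifiers, 28698 matched GENCODE M21 (GRCm38). FPKM times union exon length gave whole reads, within 0.01, for 28298 genes (98.6%), and library totals of 16272101 to 16911677. A fold compares recovered reads, each divided by its library total, with an exact (Clopper-Pearson) 95% interval. Against 0 reads it is a fold at a set floor of 3 reads, which is not a counting limit, and none is given where both libraries have 3 or fewer. Calls of 2-fold use log2(FPKM + 1) among genes averaging 1 FPKM or more. The combined test was limma with tissue as a term and Benjamini-Hochberg adjustment at 0.05, with a variance trend against the mean value. Fits were tested on simulated data, where the trend against the mean value called unchanged short models more often than the trend against reads, which was then added. A host is the gene on the same strand that spans the whole small RNA gene and has the highest mean FPKM, and 1 host is not reported here.

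Genes were named by rule: the 8 highest means, the 6 highest and lowest per NTD comparison and the 4 per control comparison with at least 20 reads, genes past 2-fold in both tissues, called genes, textbook genes, hosts, and those next to the filter. A count of 5 or fewer was named in full, and genes beyond the rule were chosen after their values were seen. The genes, lists and rule were chosen with earlier results of these data known. Alternatives were pseudocounts of 0.1 and 5, filters, rescaling, fold thresholds, intervals and trend. Tools were Python 3.11.15, numpy 2.4.6, scipy 1.17.1, pandas 2.3.3, matplotlib 3.10.9, R 4.3.3 and limma 3.58.1.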

Additional observations from a re-analysis of the deposited data

Results flagged for a closer look

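Snord71, a box C/D RNA gene in Ap1g1 whose human counterpart guides methylation of 5.8S ribosomal RNA, lay in opposite directions in the 2 tissues. It had 0 reads in NTD brain, against 4 in control brain, and 6 reads in NTD spine and 0 in control spine. Its log2 ratio of (FPKM + 1) was -1.92 in brain and 2.39 in spine. The difference between tissues was not tested, and both values rest on 6 reads or fewer. Its host Ap1g1 measured 13.3 FPKM in NTD brain and 14.5 in control brain, and 16.3 FPKM in NTD spine and 13.7 in control spine.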

How the results depend on the processing

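Depth limits nearly every value here, since no gene had more than 78 reads in a library. Of 116 alternatives over 13 results, 26 changed a count by over 1.5 times or moved a median by more than the counting error of the class. The Cajal body class had 0 reads in at least 1 library of each pair, so none of its alternatives could count as moved. Without the filter its median log2 ratio, over 5 genes, was -0.28 in brain, 0.55 in spine and 0.28 between control tissues. With the filter these were -2.46, 0 and 2.46, from Scarna17 alone. No value past 2-fold changed sign, but class medians near 0 did. For box C/D in brain the median log2 ratio was -0.16 as reported and 0.03 with at least 20 reads. For box C/D between control tissues it was -0.04 as reported, 0.17 with at least 20 reads and 0.05 after rescaling to other short models. For box H/ACA in spine it was -0.07 as reported, 0.18 with at least 20 reads and 0.11 without genes that overlap an exon. Genes at least 2-fold different in brain, 15 as reported, numbered 4 with a pseudocount of 5, 8 with at least 20 reads in the higher library and 4 at a 4-fold threshold. In spine, 10 as reported became 3 with a pseudocount of 5, 5 at means of 5 FPKM or more, 3 with at least 20 reads, 17 at 1.5-fold and 2 at 4-fold. Between control tissues, 8 as reported became 14 with a pseudocount of 0.1, 1 with a pseudocount of 5, 2 at means of 5 FPKM or more, 0 with at least 20 reads, 15 at 1.5-fold, 1 at 4-fold, and 2 both where the interval had to exclude equality and where it had to do so beside 2-fold. The box H/ACA median log2 ratio was 1.03 in brain over the 3 genes with at least 20 reads. In spine it was -0.61 over the 4 genes averaging 5 FPKM or more and -0.39 from summed reads. Genes called by limma over both tissues, 2 as reported, numbered 4 with a pseudocount of 5, 5 at means of 5 FPKM or more, 5 after rescaling by the median ratio, 6 with the trend against reads (added after the data were seen) and 6 at an adjusted p of 0.1. In that order, these settings called 0.641%, 1.51%, 0.634%, 7.66% and 1.32% of all genes tested. Limma called 0 of these genes, and 0 of all genes, both with no filter and without a trend. At an unadjusted p under 0.05 from limma there were 11 of 53 with no filter, beside 11.2% of all genes tested. Without a trend there were 12 of 37, beside 18.7% of all genes tested. The fit with no filter tested 28765 genes, and the fit without a trend tested the same 12940 as the main fit. The cause of the 0 calls was not tested in either. Of 51 single values named, 47 kept their side with a pseudocount of 0.1, 38 with one of 5 and 49 after rescaling. A count model on recovered reads was not run. Scarna17 gives no summed-read value in spine or brain and none under the 5 FPKM or 20-read filters. No paired analysis was possible because the groups share only the replicate number 1, other than the limma fit that sets NTD against control within each tissue.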
